A study of Mus musculus with 6 samples.

Results

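The genes described here are 10 imprinted genes known for their part in growth control and in the quiescence of hematopoietic stem cells (HSCs): Ndn, H19, Igf2, Meg3, Dlk1, Grb10, Plagl1, Peg3, Mest and Igf2r. They were chosen by name from what is known of them, but with earlier results of these data known. Of the 10, 8 had a row among the 21851 genes used. H19 and Meg3, both long non-coding RNAs, were not analysed here. RNA-seq was done on HSCs sorted from the bone marrow of wild-type mice, with 3 libraries from control mice (Ctrl) and 3 from mice given ionizing radiation (IR). The sorted cells lacked lineage markers, Flt3 and CD48 and carried Sca-1, c-Kit and CD150. The sources used here give neither the dose and timing of the radiation nor the age of the mice, and they do not say how many mice a library holds or whether each library had mice of its own. The p-values therefore rest on a spread between libraries that may be technical only.

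An imprinted gene is expressed mainly from the allele inherited from 1 parent. In most cases this follows a methylation mark set in the germ line that differs between the maternal and the paternal allele. Many genes expressed from the paternal allele promote growth, and many expressed from the maternal allele restrain it; Ndn, Igf2, Dlk1, Plagl1, Peg3 and Mest are paternally expressed, and H19, Meg3, Igf2r and, in most tissues, Grb10 are maternally expressed. In the blood system this network is known to be most active in long-term HSCs and to fall as they differentiate, and the H19 and Igf2 locus and the Dlk1 and Meg3 locus are both known to bear on HSC quiescence. The values below do not separate the alleles.

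Of the 8 measured genes, Ndn and Grb10 carried most of the RNA, and they changed in opposite directions. Ndn fell in irradiated HSCs and Grb10 rose, so that the gene with the higher level was Ndn in every control library and Grb10 in every irradiated library. Igf2r, Dlk1, Mest and Peg3 were detected at less than 0.4 FPKM in all libraries, and Igf2 and Plagl1 were listed at 0 throughout. FPKM are fragments normalised for transcript length and for the mapped fragments of the library. Levels can therefore be compared between genes as far as the transcript lengths used are right, and the sources do not state these lengths.

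Sequence next to the starts of the genes that changed is shown because imprinting acts on CpG dinucleotides, the sites of DNA methylation; methylation itself was not measured. The sequences are from RefSeq (GRCm38.p6), 5′ to 3′ on the gene's strand, each ends at the base before a RefSeq transcript start, and capitals mark CpG. For Ndn only the last 30 bases are shown (chr7:62348247-62348276, plus strand), because the GENCODE M21 model of Ndn starts further upstream and covers them. For Grb10, on the minus strand, 250 bases are shown before each of its RefSeq starts (chr11:12037421-12037670 for the upstream start and chr11:12027972-12028221 for the downstream start).
Ndn: cccaacaCGcatgCGcaatatCGcatcagc
Grb10, upstream start: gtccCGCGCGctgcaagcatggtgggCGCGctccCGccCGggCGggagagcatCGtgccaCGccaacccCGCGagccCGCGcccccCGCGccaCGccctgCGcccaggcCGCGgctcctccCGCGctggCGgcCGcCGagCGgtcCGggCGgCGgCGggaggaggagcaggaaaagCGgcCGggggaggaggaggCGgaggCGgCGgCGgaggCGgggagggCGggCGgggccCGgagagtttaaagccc
Grb10, downstream start: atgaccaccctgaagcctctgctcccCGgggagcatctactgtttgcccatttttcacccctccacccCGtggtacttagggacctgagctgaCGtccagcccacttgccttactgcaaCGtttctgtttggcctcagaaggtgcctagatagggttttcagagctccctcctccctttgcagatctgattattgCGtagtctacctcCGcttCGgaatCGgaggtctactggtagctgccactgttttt

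The starts differed in CpG content. The 250 bases before the upstream Grb10 start held 40 CpG, more than 98.7% of 32851 RefSeq starts, and those before the downstream start held 8. The same window of Ndn held 5 CpG, of which 3 lie in the 30 bases shown, and the median over all starts was 6. One value is given per gene, so the RNA from the upstream and the downstream start of Grb10 could not be told apart. The hexamer TGCCGC, which the imprint-protecting factor ZFP57 binds when methylated, was searched on both strands. It was found before 4 of 16 starts of 9 members (the 2 overlapping starts of Mest, 1 start of Meg3 and the start of Plagl1), and before 8.68% of all starts; it was not in the windows of Ndn or Grb10.

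Depth and the RNA of the sorting markers are given here beside these values. Read from the spacing of low values, the libraries held about 14360000 to 16280000 fragments, and 10122 to 10212 genes reached 1 FPKM. Differences were tested with limma on log2(FPKM + 1) over the 10281 genes that reached 1 FPKM in 3 or more libraries, and were called at a Benjamini-Hochberg adjusted p under 0.05. Of these genes 25.8% rose and 28.9% fell, so that a call by itself is common in this comparison. The RNA of the markers used in the gate did not follow the gate in every case: Cd48 stood at 400 ± 3.36 FPKM (SD, n = 3, as for all such values below) in controls against 3.57 ± 0.409 FPKM for Slamf1, which encodes CD150, 97.5 ± 1.72 FPKM for Kit and 125 ± 1.58 FPKM for Flt3, which the gate excludes. These markers also differed between the groups, with log2 fold changes of -0.92 for Flt3, -0.37 for Ly6a, which encodes Sca-1, -0.19 for Cd48 and 0.41 for Slamf1, all of them called, whereas Kit was not called; their part in the changes of Ndn and Grb10 was not tested.

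Ndn encodes necdin, a protein of the MAGE family that restrains the cell cycle by binding E2F1 and p53 and is known to keep HSCs quiescent. It lies on chromosome 7 at 62346569 to 62350262 (GRCm38, GENCODE M21), as 1 exon on the plus strand, inside a long non-coding RNA of the opposite strand, Gm32061. The control libraries held 2.95, 3.31 and 2.77 FPKM and the irradiated libraries 1.07, 1.43 and 1.31 FPKM. Every irradiated library lay below every control library, and the lowest control value was nearly double the highest irradiated value.

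The mean of Ndn fell from 3.01 ± 0.276 to 1.27 ± 0.182 FPKM, a ratio of 2.37 between control and irradiated means. Its log2 fold change was -0.82 (SE 0.0784, limma with Benjamini-Hochberg adjusted p = 1.72e-05). At a level this low the added 1 FPKM makes the change look smaller, and the log2 fold change was -1.19 with a pseudocount of 0.1 and -0.35 with a pseudocount of 5. Only 0.973% of all tested genes had a lower log2 fold change. Among the 1711 tested genes within 0.5 log2 units of its mean level, 36 fell as much or more, Ndn among them.

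The precision of the Ndn values rests on few fragments. With the RefSeq length of Ndn, 1652 bases, and the estimated depths, its FPKM correspond to about 72.0, 89.1 and 66.0 fragments in the control libraries and 28.0, 35.0 and 31.0 fragments in the irradiated ones. With the GENCODE M21 length of 3694 bases these would be 161, 199 and 148 and 62.6, 78.3 and 69.3 fragments. The values at the RefSeq length lay close to whole numbers in every library, and those of the irradiated libraries at the GENCODE length did not. The sources do not state the length the authors used. Here, as for all genes below, fewer cells that carry an RNA and less of it per cell cannot be told apart in bulk libraries.

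Grb10 encodes an adaptor protein that binds the activated insulin and IGF1 receptors and dampens their signal. It lies on chromosome 11 at 11930508 to 12038683, on the minus strand, with 9 annotated transcripts. The control libraries held 0.853, 0.951 and 0.901 FPKM and the irradiated libraries 2.29, 2.51 and 2.09 FPKM. Every irradiated library was above every control library, with a gap wider than the spread within either group.

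The mean of Grb10 rose 2.55-fold, from 0.901 ± 0.0492 to 2.29 ± 0.210 FPKM. Its log2 fold change was 0.79 (SE 0.0683, limma with Benjamini-Hochberg adjusted p = 8.83e-06), higher than that of 99.6% of tested genes. Of the 1502 tested genes within 0.5 log2 units of its mean level, 9 rose as much or more, Grb10 among them. Grb10 passed the filter only through the irradiated libraries, since all 3 controls were under 1 FPKM, so that a gene kept in this way had to differ. With a pseudocount of 0.1 its log2 fold change was 1.26 and with 5 it was 0.31.

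The balance of these genes turned over. Ndn over Grb10 was 3.46, 3.48 and 3.08 in the control libraries and 0.469, 0.572 and 0.626 in the irradiated libraries. The mean ratio was 3.34 ± 0.228 and 0.556 ± 0.0794. It joins the member that fell with the member that rose and is given as a description, with no test.

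**Figure D1:**
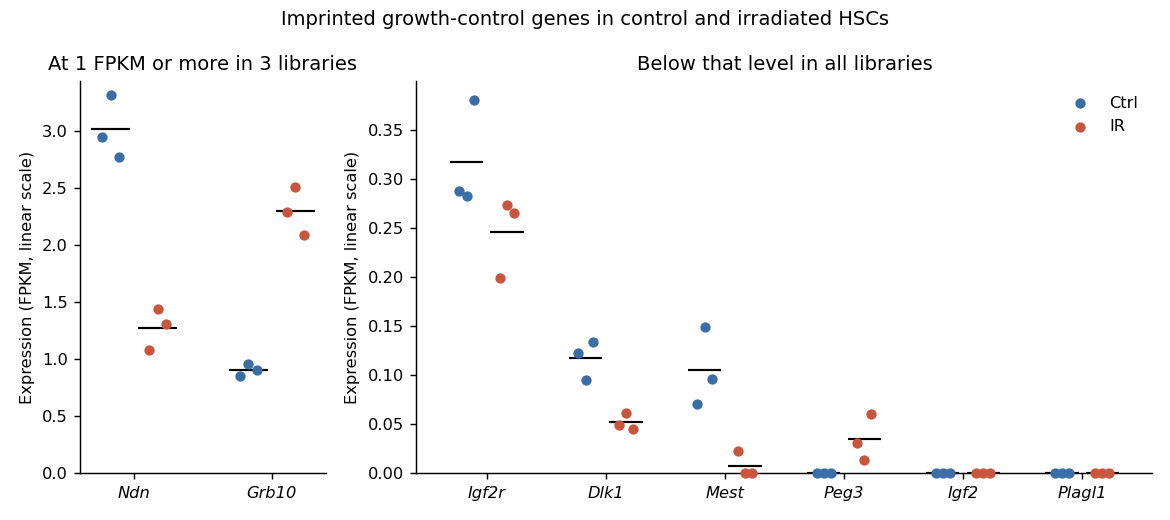
Expression in FPKM (linear axes) of the 8 measured genes, with 1 point per library, blue for control and red for irradiated HSCs, and a black line at each group mean. Ndn is lower and Grb10 higher in all 3 irradiated libraries, and the other genes stay under 0.4 FPKM.

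Igf2r encodes the cation-independent mannose 6-phosphate receptor, which carries lysosomal enzymes and removes IGF2 from the cell surface. It was at 0.288, 0.282 and 0.380 FPKM in controls and at 0.199, 0.273 and 0.265 FPKM in irradiated HSCs. The groups did not overlap, but the gap between 0.282 and 0.273 was smaller than the spread within either group. Airn, a non-coding RNA of the opposite strand, overlaps Igf2r, and the sources do not say whether strand was used in the counting.

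Dlk1 encodes a membrane protein related to the Notch ligands that restrains differentiation. It was at 0.122, 0.0950 and 0.134 FPKM in controls and at 0.0490, 0.0610 and 0.0448 FPKM in irradiated HSCs. All irradiated values lay below all control values, with a ratio of means of 2.27 between control and irradiated HSCs. Multiplied by the estimated depth of each library, the 6 values stood in the ratio of the whole numbers 14, 12, 15, 6, 7 and 5 (each within 0.06), so they may rest on as few fragments as these.

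Mest encodes a hydrolase-like protein of mesodermal tissue and hosts a microRNA gene, Mir335, on its strand. Its values were 0.0701, 0.149 and 0.0958 FPKM in controls and 0.0219, 0 and 0 FPKM in irradiated HSCs. Multiplied by the depth of each library they stood in the ratio 3, 7, 4, 1, 0 and 0. Mest was thus near the limit of detection in controls and listed at 0 in 2 irradiated libraries.

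Peg3 encodes a zinc finger protein linked to stem cells of several tissues. It was listed at 0 in all 3 controls and was at 0.0301, 0.0129 and 0.0596 FPKM in irradiated HSCs, in the ratio 5, 2 and 9 once multiplied by depth. These values are near the limit of detection, and no fold is given against a group at 0. Igf2, a fetal growth factor, and Plagl1, a zinc finger transcription factor that arrests the cell cycle, were listed at 0 in all 6 libraries, as were 6841 of the 21851 genes. Of 80 cytosolic ribosomal protein genes only Rpl10l, named after its values were seen, was listed at 0 in every library.

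Of the 4 members above 0 but under the filter, 3 had all irradiated libraries below all controls and 1 had them above. Among the 4729 genes of that kind these shares were 22.1% and 16.5%. The 2-sided exact permutation test gave p = 0.1 for each of the 4, the smallest that 3 libraries against 3 allow. Fitted without a filter on low values, Dlk1 (limma with Benjamini-Hochberg adjusted p = 0.0221) and Mest (adjusted p = 0.0126) fell, whereas Igf2r (adjusted p = 0.159) and Peg3 (adjusted p = 0.137) were not called. In that fit 23.5% of 15010 genes fell and 19.7% rose.

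In controls the order of the levels was Ndn, Grb10, Igf2r, Dlk1 and Mest, with Peg3, Igf2 and Plagl1 at 0. Dlk1 and Mest were neighbours whose control values overlapped, while Ndn, Grb10, Igf2r and the pair below them did not overlap. In irradiated HSCs the order was Grb10, Ndn, Igf2r, Dlk1, Peg3 and Mest, in which Peg3 overlapped both Dlk1 and Mest. The mean of Ndn was higher than that of 61.1% of all genes in controls and of 55.1% in irradiated HSCs, and that of Grb10 higher than 52.7% and 59.2%. These shares include the 6841 genes listed at 0 in all libraries.

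**Figure D2:**
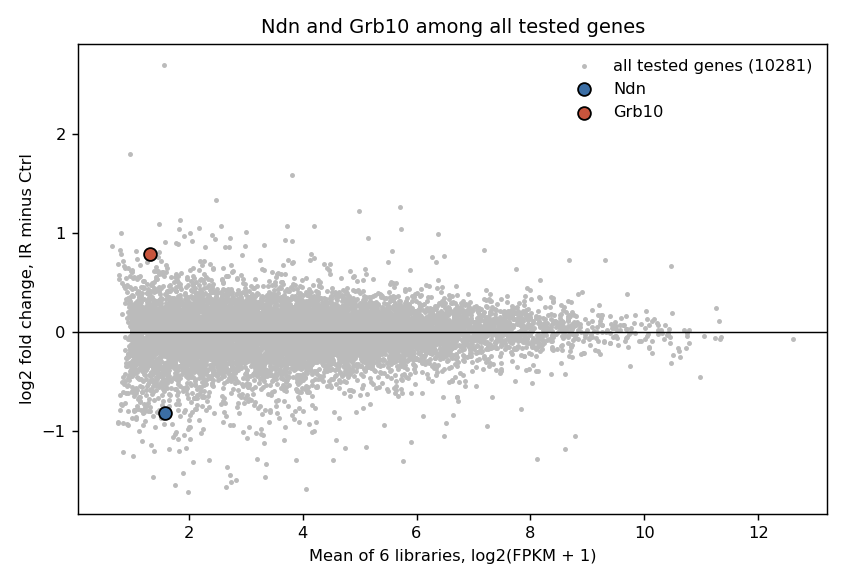
Mean log2(FPKM + 1) over the 6 libraries on the x axis against the log2 fold change of irradiated minus control on the y axis, with 1 grey point per tested gene (10281). Ndn, at -0.82, lies among the lowest genes of its level and Grb10, at 0.79, among the highest.

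The genes nearest in pattern to Grb10, the member with the smallest p, were taken by the distance of the mean log2(FPKM + 1) in the 2 groups. They were Kifc1, a mitotic kinesin (0.955 ± 0.139 to 2.28 ± 0.449 FPKM), Erbb3, a receptor of the EGF receptor family (0.906 ± 0.232 to 2.13 ± 0.479 FPKM), and Glt8d2, a glycosyltransferase domain gene (1.11 ± 0.0400 to 2.24 ± 0.128 FPKM). Their distances were 0.0409, 0.0863 and 0.153 log2 units over these 6 libraries, a measure that fixes their direction.

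Neighbours of Ndn and Grb10 within 500 kb, a window chosen after the values were seen, did not all follow them. Around Ndn, Magel2 was listed at 0 in all libraries and Mkrn3 was at 1.02 ± 0.284 and 0.848 ± 0.0723 FPKM, under the filter and with overlapping groups; both are imprinted genes of the same paternally expressed domain. Peg12, further along this domain at 112 kb from Ndn, held 2.82, 2.44 and 2.63 FPKM in controls and 2.06, 2.05 and 2.19 FPKM in irradiated HSCs. It fell by 0.23 on the log2 scale (limma with Benjamini-Hochberg adjusted p = 0.0103). Around Grb10, the lymphoid transcription factor gene Ikzf1 fell from 42.4 ± 0.966 to 36.1 ± 1.12 FPKM and Fignl1, an ATPase of homologous recombination, rose from 58.5 ± 1.59 to 65.3 ± 1.02 FPKM. Ddc, next to Grb10 and imprinted in the heart, was at 0.117 ± 0.0543 and 0.197 ± 0.0614 FPKM with overlapping groups, Zpbp was not called, and Cobl was listed at 0.

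Other imprinted genes were taken from a list of 55, some of which are imprinted only in certain tissues or transcripts. Of these 49 were in the tables, 15 were listed at 0 in all libraries, 13 were under the filter and 21 were tested, of which 2 rose, 8 fell and 11 were not called. The median log2 fold change was -0.10, against -0.01 over all tested genes, and the shares of all tested genes that rose and fell were 25.8% and 28.9%. The log2 fold changes of these 21 genes ran from -0.47 to 0.31, against -0.82 for Ndn and 0.79 for Grb10. Under the filter, Tfpi2, picked with its values known, was at 0.0755, 0.274 and 0.0774 FPKM in controls and at 0.460, 0.453 and 0.544 FPKM in irradiated HSCs, with no overlap. Zrsr1, Rasgrf1, Ascl2 and Ppp1r9a, also picked with their values known, had all irradiated libraries below all controls. The groups of the rest of the 13 overlapped. Of all genes above 0 but under the filter, 22.1% lay below all controls in this way and 16.5% above.

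Among those known for expression from the paternal allele, 5 of 25 were tested and only Peg12 was called. Sgce, the epsilon sarcoglycan gene, was at 6.89 ± 0.541 and 6.12 ± 0.363 FPKM, Impact, a regulator of translation, at 3.43 ± 0.174 and 3.18 ± 0.236 FPKM, Inpp5f, a phosphoinositide phosphatase, at 2.17 ± 0.0654 and 2.09 ± 0.213 FPKM and Mcts2 at 1.90 ± 0.0508 and 1.67 ± 0.423 FPKM. The groups of these 4 genes overlapped, though all 4 means were lower in irradiated HSCs. Snrpn, the best known paternally expressed gene of the Ndn domain, was listed at 0; it was picked with its values known.

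Among those known for expression from the maternal allele, 16 of 30 were tested, of which 2 rose and 7 fell. Phlda2, a growth-restraining gene of the placenta, had 3.93, 3.34 and 3.83 FPKM in controls and 2.28, 2.68 and 2.25 FPKM in irradiated HSCs, a log2 fold change of -0.47 (limma with Benjamini-Hochberg adjusted p = 0.000397). Its groups did not overlap. In the same domain of chromosome 7, Cd81, a tetraspanin, fell from 231 ± 1.73 to 210 ± 7.98 FPKM, and Osbpl5, a lipid transfer protein, rose from 4.88 ± 0.270 to 5.88 ± 0.222 FPKM, so the domain did not change as 1 block.

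Slc22a3, an organic cation transporter gene close to Igf2r on chromosome 17, rose from 15.5 ± 0.622 to 19.4 ± 1.08 FPKM (log2 fold change 0.31, limma with Benjamini-Hochberg adjusted p = 0.000407). It was the larger of the 2 rises in this list, and Igf2r itself had a lower mean in irradiated HSCs. H13, a signal peptide peptidase, fell from 32.5 ± 0.434 to 28.7 ± 0.448 FPKM and Pon2, a lactonase, from 54.6 ± 1.26 to 49.9 ± 0.0570 FPKM. Copg2, which overlaps Mest on the opposite strand and was picked with its values known, was at 3.44, 2.45 and 3.11 FPKM in controls and 2.65, 2.22 and 2.24 FPKM in irradiated HSCs. It fell by the test (limma with Benjamini-Hochberg adjusted p = 0.0476), although its groups overlapped, and the call was lost without control replicate 1 or 3 or irradiated replicate 2 or 3 (adjusted p = 0.116 to adjusted p = 0.176), and with scaling by the median ratio (adjusted p = 0.0513).

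**Figure D3:**
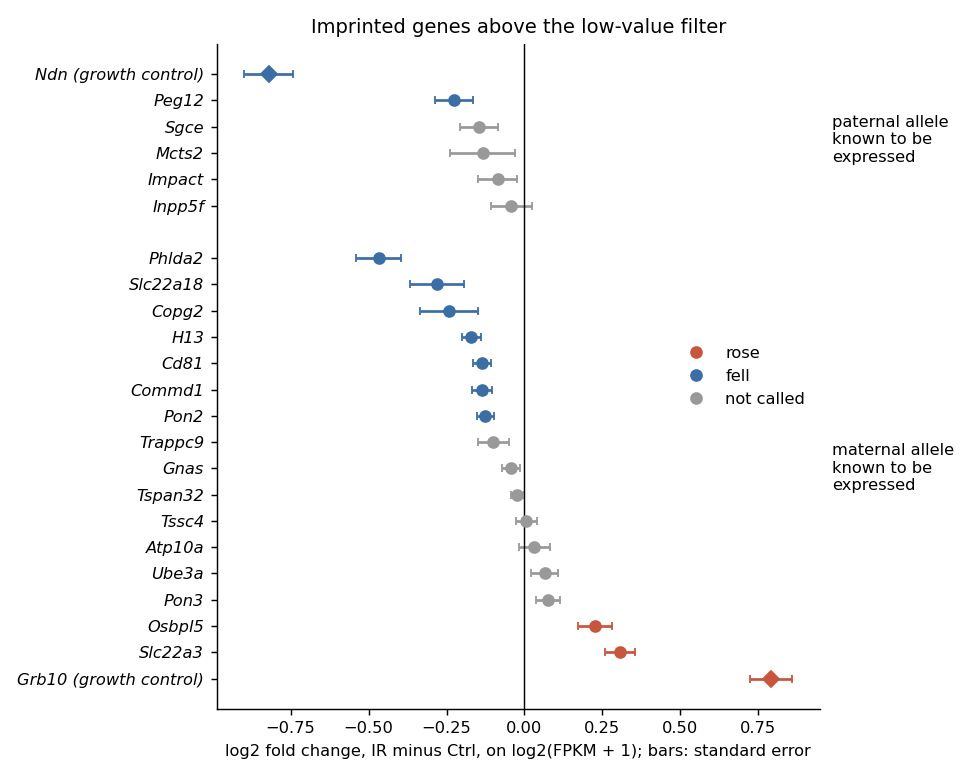
Log2 fold change of irradiated minus control (x axis, points with standard errors) for each imprinted gene above the filter, grouped by the parental allele known to be expressed, with diamonds for Ndn and Grb10. Ndn lies lowest at -0.82 and Grb10 highest at 0.79, and the other 21 genes lie between -0.47 and 0.31.

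Igf2, Igf2r and Grb10 act on the IGF and insulin pathway, in which IGF ligands and insulin bind the receptors Igf1r and Insr, IRS and SHC adaptors pass the signal on, and IGF binding proteins hold the ligands. Of 18 further genes of this pathway 7 were tested, of which 2 rose, 4 fell and 1 was not called (median log2 fold change -0.10). Insr, the insulin receptor and a binding partner of Grb10, fell from 1.77 ± 0.121 to 1.27 ± 0.117 FPKM. Shc1 fell from 42.7 ± 0.885 to 34.5 ± 1.59 FPKM, whereas Grb2, the adaptor to RAS, rose from 51.7 ± 2.87 to 63.1 ± 2.17 FPKM.

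Of the binding proteins, Igfbp4 was the most abundant and fell from 253 ± 2.54 to 235 ± 4.55 FPKM. Another binding protein gene, not named here, had the lowest log2 fold change of the tested genes of this pathway, -0.39. Igf1r, named after its value was seen, went the other way from Insr, from 2.19 ± 0.116 to 2.57 ± 0.0802 FPKM, and rose (limma with Benjamini-Hochberg adjusted p = 0.0376). That call was lost when any library other than control replicate 1 was left out (adjusted p = 0.0522 to adjusted p = 0.108). The ligand gene Igf1, also named after its values were seen, was between 0.0647 and 0.135 FPKM in every library, and Igf2 was at 0 as given above.

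Igf2r also serves the mannose 6-phosphate route to lysosomes. All 12 further genes of this route were tested, of which 5 rose, 1 fell and 6 were not called (median 0.03). M6pr, the other mannose 6-phosphate receptor, stood at 212 ± 1.77 FPKM in controls, far above the 0.317 ± 0.0552 FPKM of Igf2r, and rose to 227 ± 3.20 FPKM. Gga2, a sorting adaptor, rose from 15.5 ± 0.615 to 17.5 ± 0.349 FPKM and Vps35, a retromer subunit, from 103 ± 0.379 to 110 ± 2.44 FPKM, while the lysosomal channel gene Mcoln1 fell from 21.7 ± 0.0904 to 18.7 ± 0.367 FPKM.

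Of 17 genes that set, keep or erase imprints 13 were tested, of which 3 rose, 4 fell and 6 were not called (median -0.05). Smchd1, a chromatin protein needed for silencing at some imprinted clusters, rose from 9.02 ± 0.254 to 11.5 ± 0.0359 FPKM. Dnmt1, the maintenance DNA methyltransferase, rose from 46.9 ± 0.666 to 53.1 ± 0.966 FPKM and Uhrf1, which brings it to replicating DNA, from 77.5 ± 1.40 to 87.8 ± 2.24 FPKM. Arid4b fell from 9.98 ± 0.357 to 8.21 ± 0.221 FPKM.

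Necdin belongs to the MAGE family and binds p53 and E2F1. Of 8 other family members and these 2 partners, 7 were tested, of which 3 rose and 2 fell. Maged2 fell by 0.37 on the log2 scale, to 9.01 ± 0.468 FPKM, whereas Ndnl2, also known as Nsmce3, a subunit of the SMC5/6 complex, rose from 29.6 ± 1.68 to 33.5 ± 1.40 FPKM. The partner genes rose as well, Trp53 from 216 ± 3.99 to 235 ± 3.14 FPKM and E2f1 from 23.5 ± 0.653 to 27.3 ± 1.52 FPKM. Of the tested genes of this group Maged2 had the log2 fold change of the largest size, and Ndn stood at -0.82. Magee2, under the filter and picked with its values known, was at 0.964, 0.770 and 1.23 FPKM in controls and at 0.520, 0.380 and 0.271 FPKM in irradiated HSCs, and its groups did not overlap.

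Ndn, Dlk1, Mest and Igf2 are also known from stromal and endothelial cells, and imprinted genes differ between HSCs and multipotent progenitors, so marker lists of these cells were read beside the members. Of 15 stromal markers 3 were tested and all 3 fell, with a summed level of 21.8 to 22.4 FPKM in controls and 17.9 to 18.3 FPKM in irradiated HSCs. Pdgfra, picked as a defining marker with its values known, was listed at 0 in all libraries, and most of the sum came from Pdgfrb, at 14.8 ± 0.356 and 13.2 ± 0.232 FPKM; Sparc fell from 2.49 ± 0.257 to 1.44 ± 0.0452 FPKM and Cxcl12 from 1.64 ± 0.0903 to 1.24 ± 0.0879 FPKM. Of 10 endothelial markers 6 were tested and 4 fell, with sums of 225 to 229 and 161 to 168 FPKM. The other 2 were not called, with log2 fold changes of -0.22 and 0.11. Over all tested genes 28.9% fell. Egfl7, which HSCs also express, made up most of that sum, Emcn fell from 10.4 ± 0.876 to 5.83 ± 0.464 FPKM, and Cldn5 fell from 1.62 ± 0.236 to 0.374 ± 0.104 FPKM. Pecam1 averaged 43.1 ± 0.239 FPKM in controls and 35.2 ± 1.63 FPKM in irradiated HSCs, the smallest of the 4 falls on the log2 scale (-0.29). Cdh5, a defining marker picked with its values known, was listed at 0 in 5 of 6 libraries. Other markers under the filter, also picked with their values known, went both ways without overlap. Vwf (0.855 ± 0.0135 and 1.06 ± 0.162 FPKM) and the stromal Kitl (0.0416 ± 0.0159 and 0.116 ± 0.0219 FPKM) were higher in irradiated HSCs. Stab2 and the stromal Col1a1, Col3a1, Dcn and Acta2 were lower.

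All 9 tested of 10 multipotent progenitor markers fell, with sums of 1986 to 1998 FPKM in controls and 1453 to 1484 FPKM in irradiated HSCs, and with Dntt at a log2 fold change of -1.28, Flt3 at -0.92, Notch1 at -0.87 and Satb1 at -0.63. Dntt encodes TdT, which adds bases at antigen receptor joints in lymphoid precursors; it averaged 430 ± 6.62 FPKM in controls and 177 ± 2.97 FPKM after radiation, the largest single part of the drop in the sum. Of 11 stem cell markers 10 were tested, of which 4 rose and 4 fell, with sums of 119 to 121 and 123 to 131 FPKM. Procr fell from 19.2 ± 0.494 to 12.6 ± 0.704 FPKM and Prdm16 from 1.64 ± 0.0418 to 0.907 ± 0.0946 FPKM, whereas Tek rose from 3.09 ± 0.405 to 5.57 ± 0.142 FPKM and Gata2 from 44.4 ± 1.11 to 53.5 ± 2.31 FPKM. Gata2 was the largest single part of the stem cell marker sum in both groups. Markers of mature lineages summed to 20.4 to 21.1 FPKM in controls and 9.94 to 10.5 FPKM in irradiated HSCs; 3 of 10 were tested and fell, and Itgam made up most of the sum at 13.6 ± 0.154 and 6.77 ± 0.394 FPKM. Cd4 and Klrb1c had log2 fold changes of -0.92 and -0.60, and Cd3g, picked with its values known, was listed at 0. Cd4, Cldn5, Prdm16 and a progenitor marker not named here passed the filter only through the controls, so each had to be lower in irradiated HSCs. A stem cell marker that rose passed only through the irradiated libraries, so it had to be higher. Ndn fell, as did 28.9% of all tested genes, and Grb10 rose. The part of other cells in either change was not tested.

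**Figure D4:**
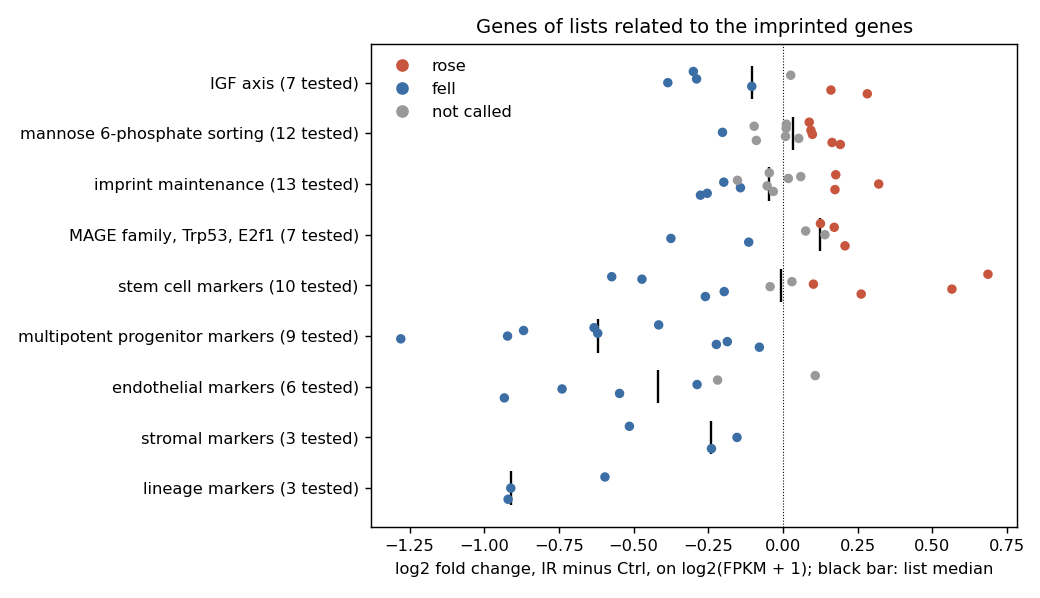
Log2 fold change of irradiated minus control (x axis) for each tested gene of the lists related to the imprinted genes, with a black bar at the median of each list. All 9 multipotent progenitor markers lie below 0, while the lists of the IGF axis, mannose 6-phosphate sorting and imprint maintenance spread to both sides of 0.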

How the data were processed

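RNA of sorted HSCs was measured in 3 control and 3 irradiated libraries. The authors deposited 1 value per gene symbol and library, taken as FPKM because the tables name no unit, the values are not whole and the submitters' processing notes name StringTie, beside fastp, HISAT2 and the build GRCm38 (mm10). Per the labels' protocols the libraries were made with a stranded kit from polyadenylated RNA. The sources used here name no versions, annotation or strand setting. Of 21878 entries 27 with a date in place of a symbol were left out.

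Genes that reached 1 FPKM in 3 or more libraries were tested with limma 3.58.1 in R 4.3.3 on log2(FPKM + 1), with a mean-variance trend and Benjamini-Hochberg adjustment over all 10281; members below were compared by exact permutation tests (SciPy 1.17.1). The model was tested on simulated data. Depth was estimated from FPKM times length of single-transcript genes in GENCODE M21, in which 24.5% to 26.9% of low values lay within 0.01 of whole numbers at the best step, too few to recover reads. Sequences matched 9 of the 10 members.

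The members and lists were chosen with earlier results of these data known. A gene of the stem cell marker list is not reported here and was left out of its counts. Genes named are the members, 6 genes of the smallest p in each list of other imprinted genes, 4 in each other list, the gate's markers and the 3 genes nearest in pattern; any other gene is marked as picked with its values known. Alternatives were other pseudocounts, filters and scalings, no trend, a replicate block and leaving out each library.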

Additional observations from a re-analysis of the deposited data

How the results depend on the processing

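Ndn and Grb10 kept their direction and stayed past the threshold in all 13 alternatives that could be fitted, with log2 fold changes of -1.19 to -0.35 for Ndn (adjusted p = 1.37e-05 to adjusted p = 0.000365 by limma) and 0.31 to 1.26 for Grb10 (adjusted p = 6.83e-06 to adjusted p = 0.000146). Without 1 library at a time they ranged from -0.87 to -0.76 and from 0.75 to 0.84. Grb10 passed the filter of 1 FPKM only through the irradiated libraries. Its direction was therefore fixed in every alternative that used the genes kept by this filter. In the fit without a filter its log2 fold change was 0.79 (adjusted p = 0.000146 by limma). A filter of 5 FPKM removed all members and gave no value. Without a filter on low values 3 members fell (Ndn, Dlk1 and Mest). With a filter of 5 FPKM 5 other imprinted genes fell, of 15 tested, in place of 8 of 21. Of 57 other named genes tested, 54 kept their side of the threshold in every alternative that tested them. Copg2 also lost its call without a filter (adjusted p = 0.0993 by limma) and without a trend (adjusted p = 0.0677), Igf1r under the replicate block (adjusted p = 0.0607) and without single libraries, and Sgce passed the threshold without control replicate 2 (adjusted p = 0.0437 by limma) and without irradiated replicate 3 (adjusted p = 0.0397). Scaling moved the median log2 fold change of all genes by less than 0.01. The replicate block gave 2539 rises and 2840 falls over all genes and the same 1 rise and 1 fall among the members. Same-numbered libraries did not deviate together (correlations of 0.0085, -0.0314 and -0.0486), so the numbers were not taken to pair them. Depth limits Dlk1, Mest and Peg3 most, whose values may rest on a few fragments.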
